A study of Homo sapiens with 18 samples.

Results

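EHMT1 (GLP) is a histone methyltransferase that dimethylates lysine 9 of histone H3 (H3K9me2), a mark of silent chromatin. Chromatin immunoprecipitation and sequencing (ChIP-seq) of EHMT1 in parental LNCaP cells, a human prostate cancer cell line that grows on androgen, gave 1626 peaks on chromosomes 1 to 22 and X. The results below concern 464 of these peaks. They were selected on the peak lists themselves: each shares at least 1 bp with a V5 peak of the cells that carry EHMT1 with both K450 and K451, its neighbouring lysines, replaced by arginine (K450RK451R), and none with a V5 peak of the cells that carry wild-type (WT) EHMT1. Being enriched for EHMT1 and for the mutant protein and absent from the WT list is thus how they were chosen and not a result. What they share beyond this, in sequence, genes and the other lists, was not part of the choice.

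The V5-tagged EHMT1 proteins (WT, K450R, K451R and K450RK451R) were expressed in 4 stable LNCaP lines from a tetracycline-inducible vector, on top of the cells' own EHMT1. The lines were induced with 0.5 µg/ml doxycycline for 2 days and precipitated with antibodies against V5 and against H3K9me2. The EHMT1 precipitation was made in parental cells, for which the labels give no doxycycline. There were 18 samples in 9 groups of 2 replicates, with 1 peak list per group. No values per replicate were analysed here, so that no value below has a replicate error and all intervals and tests cover counting over peaks only.

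REST is a zinc-finger repressor that keeps neuronal genes silent in cells that are not neurons. It binds RE1, a long element made of a left and a right block, and recruits histone deacetylases, LSD1 and the EHMT enzymes to it. The pericentromeric and subtelomeric parts of chromosomes, built largely of satellite repeats, are another well-known territory of H3K9 methylation.

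RE1 was searched as a left block TTCAGCACC, 2 free bases, and a right block that starts with GGACAG and ends, after a free base, in GCC. The string counted as present when the window of 201 bp around the EHMT1 summit held it on either strand with at most 3 mismatches over its 18 fixed letters. It was found in 45 of the 464 peaks (9.70%, 95% Wilson interval 7.33% to 12.7%), whereas 22.9% of all EHMT1 peaks held it. At 1 kb to either side of the same summits it was found in 1 of 928 windows (0.108%), and it occurred in 0.037% of the 14107527 adjoining windows of this width into which the genome was divided. The sites of the 14 genes below are a selection that favours neuronal and secretory genes and not a ranking. RE1 sites in, or with the nearest coding start at, PCMTD2, FAM24A, DISP3, ZNF254 and PRB2 had higher EHMT1 enrichment than most of them and are not shown. The same holds for those of FKBP4, MVB12B, RPS19BP1, SYT7 and PTF1A. How many of the 45 lay at neuronal genes was not counted. Each is 30 bases of hg19, read 5′ to 3′ on the strand given, with the left and the right block in capitals. The coordinates run from the first to the last capital.
SHANK2 (chr11:70496544-70496564, plus strand): ctagTTCAGCACCctGCAGAGAGCCagtgc
UNC5A (chr5:176264773-176264793, plus strand): cactTTCAGCACCgtGGACAGCCCCaggcg
HTR5A (chr7:154861790-154861810, plus strand): gagaGGCAGCACCgtGGACAGCGCCaaccc
GLRA1 (chr5:151304315-151304335, plus strand): gcgtTTCAGCACCacGGAGAGCGTCcagac
BARHL1 (chr9:135457562-135457582, minus strand): gcccGTCAGCACCgtGGACAGCGCCtccct
PDE1C (chr7:32467487-32467507, plus strand): acgcTTCAGCACCggGGACAGCTCCtgcct
XKR7 (chr20:30556393-30556413, plus strand): cgccATCAGCACCaaGGACAGCGCCggcgc
GPR6 (chr6:110299892-110299912, plus strand): cgctTTCAGCACCgcGGACAGCGTCtctgc
SNAP25 (chr20:10200320-10200340, plus strand): acctTTCAGCACCggGGACAGCGGTccggc
DRD2 (chr11:113345221-113345241, plus strand): aaagTTCAGGACCaaGGACAGCGGCaaccg
GRIA2 (chr4:158141540-158141560, minus strand): gcctTTCAGCACCgaGGACAGCGCCtcgct
PTPRN (chr2:220173041-220173061, minus strand): gagcTTCAGCACCgcGGACAGCGCCagcgg
CHRNB2 (chr1:154540430-154540450, plus strand): cggcTTCAGCACCacGGACAGCGCCccacc
CHGB (chr20:5892350-5892370, plus strand): gccgGTCAGCACCgcGGACAGCGCCagcct
At GRIA2, PTPRN and CHRNB2 both blocks matched at every fixed letter, as they did at CRH. UNC5A, BARHL1, PDE1C, XKR7, GPR6 and CHGB differed from the string at 1 letter, and SHANK2, HTR5A, GLRA1, SNAP25 and DRD2 at 2.

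In 12 further members both blocks were present, each with at most 1 mismatch, but at another spacing. The spacing was not fixed to a value in this search, which allowed up to 20 bases between the blocks and was added after the data had been seen. These 12 (2.59%, 95% interval 1.49% to 4.47%) compared with 3.38% of all EHMT1 peaks. They are shown because the spacings of 11 of them fell between 7 and 11 bases.
SCG3 (chr15:51973708-51973734, plus strand): cTTCAGCACCcacagggcGGACAGCGCTcc
NTSR2 (chr2:11810080-11810106, plus strand): cTTCAGCACCacgtgcgcGGACAGCGCAtt
SVOP (chr12:109458746-109458772, plus strand): tTTCAGCACCgggaagctGGACAGCACCcg
GRM2 (chr3:51740881-51740906, plus strand): gaTTCAGCACCacgaggcGGACAGCTCCag
AEN (chr15:89149042-89149067, plus strand): gcTTCAGCACCagaggctGGACAGCGCCcc
TBC1D3G (chr17:34819996-34820021, plus strand): gcTTCAGCACCgcggcttGGACAGCGCCcc
SLITRK1 (chr13:84456240-84456267, minus strand): tTTCAGCACCgggggaactGGACAGCACCt
ATP2B2 (chr3:10502072-10502099, minus strand): tGTCAGCACCtcagtgtgtGGACAGCTCCt
MARCHF4 (chr2:217237053-217237081, plus strand): TTCAGCACCccgggcgagtGGACAGCTCCc
CELSR3 (chr3:48699301-48699330, minus strand): TTCAGCACCacgcacggcgaGGACAGCTCC
INSM2 (chr14:36004585-36004604, plus strand): ggcggATCAGCACCcGGACAGCGCCccgag
Between the capitals lie 7 bases at GRM2, AEN and TBC1D3G, 8 at SCG3, NTSR2 and SVOP, 9 at SLITRK1 and ATP2B2, 10 at MARCHF4 and 11 at CELSR3. INSM2 has 1 base. The site at CLVS1 has 9. Over all 464 members, both blocks with at most 1 mismatch each stood 2 bases apart in 23 windows and 7 to 11 bases apart in 3, 4, 3, 2 and 1 windows, a window with more than 1 spacing being counted at each. They stood 0 bases apart in 1 window, at RAB37, and 1 base apart in 1, at INSM2. No member had them 3, 4, 5 or 6 bases apart, or 12 to 20 bases apart.

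**Figure D1:**
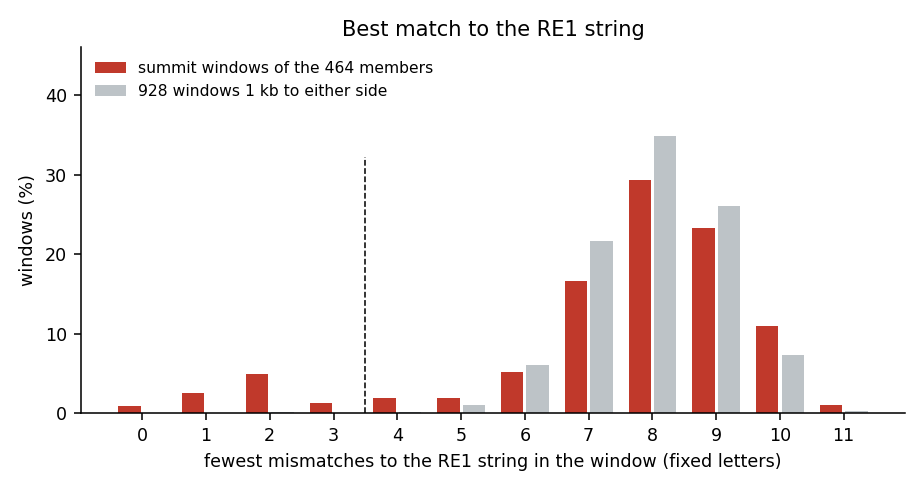
Share of windows (%) by the fewest mismatches to the RE1 string, out of 18 fixed letters. Red bars are the summit windows of the 464 members, grey bars the 928 windows 1 kb to either side, and the dashed line marks the limit of 3 mismatches. The members show 2 groups, 45 windows with 0 to 3 mismatches and a bulk around 8 that the flanking windows share.

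The number of mismatches at the summit was 0 in 4 members, 1 in 12, 2 in 23 and 3 in 6. A further 9 members had 4 mismatches, against 2 of the 928 flanking windows. These included LHFPL4 (EHMT1 fold 13.96), an intron shared by CERKL and NEUROD1 (11.9), and OPRM1 (6.97), the µ-opioid receptor, and 1 of the 9, CELSR3, is among the 12 with another spacing. The centre of the RE1 string lay a median of 22 bp from the EHMT1 summit and at most 70 bp from it, with 40 of 45 within 50 bp. From the K450RK451R V5 summit, which was called in other cells with another antibody, the median distance was 35 bp, and 32 of 45 strings lay within 50 bp. Since the window reaches 100 bp to each side of the EHMT1 summit, the first of these distances was bounded by the search, and the second only by the overlap of the peaks.

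**Figure D2:**
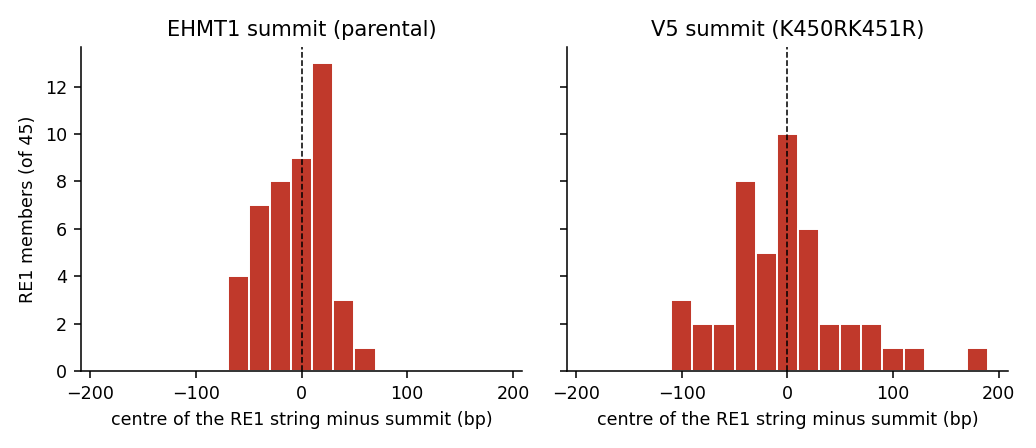
Position of the RE1 string in the 45 members that hold it, as the centre of the string minus the summit (bp). The left panel takes the EHMT1 summit of parental cells and the right panel the V5 summit of K450RK451R cells; the median absolute distances are 22 and 35 bp.

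The EHMT1 fold enrichment (pileup at the summit over the local background, as deposited) of the 45 RE1 members ran from 4.62 to 19.9 with a median of 10.4. Their V5 fold in K450RK451R cells ran from 3.89 to 13.4 with a median of 5.43. These values chose the members and are given as a description. SHANK2, a scaffold protein of the postsynaptic density, had the highest EHMT1 fold, 19.9, and a V5 fold of 4.68 at a site in an intron. HTR5A, the 5-HT5A serotonin receptor, had an EHMT1 fold of 16.7 and the highest V5 fold of the RE1 members, 13.4, with the summit 220 bp from its start. UNC5A, a netrin receptor, had 16.5 and 7.30 in an intron 27279 bp from the start of the gene. In 407 members without the string at either spacing the medians were 5.84 for EHMT1 and 5.90 for V5. The V5 peaks of the RE1 members were weaker than these folds show. Their V5 summit pileup, recovered from the deposited values, had a median of 11 and a lowest value of 8, against a median of 27 in the 407. The median V5 −log10 q was 4.15 against 9.88.

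**Figure D3:**
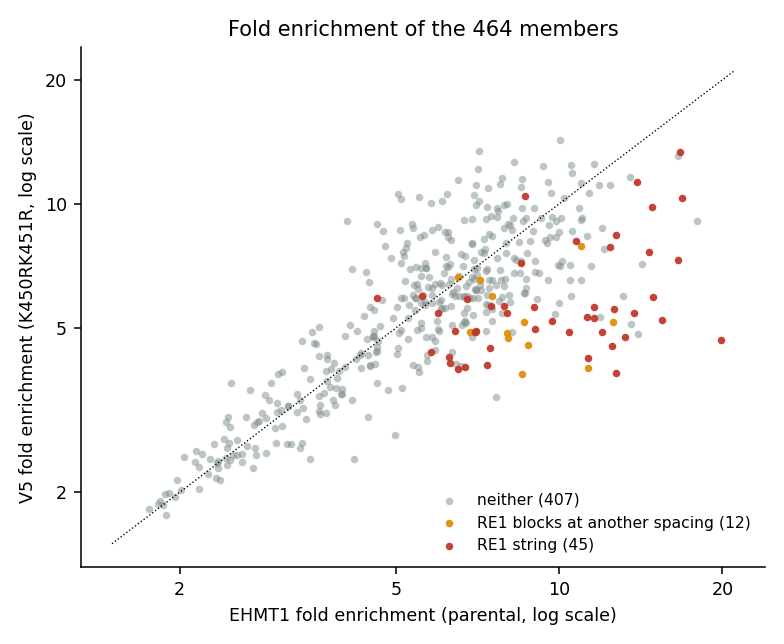
Fold enrichment of the 464 members for EHMT1 in parental cells (x axis) and V5 in K450RK451R cells (y axis), both on log scales, with equal values on the dotted line. RE1 members (red) and members with the blocks at another spacing (orange) lie mostly below the line, with median V5 folds of 5.43 and 5.03, while the other 407 (grey) follow it.

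Receptors of neurotransmission were among the RE1 members. GLRA1, the α1 subunit of the glycine receptor channel, had an EHMT1 fold of 13.8 and a V5 fold of 5.44 at 101 bp from the start. CHRNB2, a nicotinic acetylcholine receptor subunit, had 5.81 and 4.36 at 233 bp, and GRIA2, an AMPA-type glutamate receptor subunit, had 7.0 and 4.89. At these 3 the EHMT1 fold was thus the higher value, by more at GLRA1 than at the others. Among receptors coupled to G proteins, besides HTR5A, the dopamine receptor DRD2 had folds of 9.01 and 4.98, the muscarinic receptor CHRM4 6.52 and 3.99, and the orphan receptor GPR6 8.98 and 5.63. GRM2, a metabotropic glutamate receptor, and NTSR2, a neurotensin receptor, belonged to the members with another spacing, with EHMT1 folds of 8.03 and 8.53.

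Genes of vesicles and secretion held members with the RE1 string or, at SCG3 and SVOP, with the blocks at another spacing. SNAP25, a SNARE protein of the synaptic membrane, had an EHMT1 fold of 12.7 and a V5 fold of 8.42 in an intron. SYT7, a calcium sensor of vesicle fusion, had 12.6 and 5.57, also in an intron. The granin CHGB, a content protein of dense-core granules, had 5.58 and 5.98 at 203 bp from its start, and SCG3, another granin, had 12.5 and 5.18 at 45 bp. The granin sites thus differed more in EHMT1 than in V5 enrichment. CRH, the hypothalamic hormone of the stress axis, had 7.93 and 5.64, and PTPRN, a membrane protein of dense-core vesicles, 7.02 and 4.93. SVOP, a relative of the synaptic vesicle protein SV2, had 6.51 and 6.64. RAB37, a small GTPase of vesicle traffic, had 8.66 and 10.5 and was with SVOP and CHGB on the side where V5 was the higher value.

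The remaining RE1 members near starts with the highest EHMT1 fold were PRB2, a salivary proline-rich protein (14.7 and a V5 fold of 7.63), BARHL1, a homeobox factor of the nervous system (12.4 and 7.85), PDE1C, a calmodulin-dependent phosphodiesterase (12.02 and 4.89), ANK1, an ankyrin of the membrane skeleton (11.6 and 5.62), and XKR7 (10.8 and 8.15). The RE1 sites with the highest EHMT1 fold away from starts, besides SHANK2 and UNC5A, were an intergenic site 71994 bp from PCMTD2 (16.8), an intron of FAM24A (15.4), an intergenic site 71691 bp from DISP3 (14.9) and one 32087 bp from ZNF254 (14.9). The PCMTD2 site was the only RE1 member with no 51-base stretch of its window unique in the genome, and it lay 6479 bp from a gap in the assembly.

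Gene lists were set with earlier results of these data known, so that their counts are descriptions. Of the 134 genes on 6 lists of neuronal genes, 8 had a member within 1 kb of the start and 15 had one there or inside the gene, while over all 20090 protein-coding genes 33 (0.164%) and 109 (0.543%) did. Neurotransmitter receptors gave 6 of 23 genes (GRIA2, GLRA1, CHRNB2, CHRM4, HTR5A and OPRM1), granins and neuropeptides 3 of 16 (CHGB, SCG3 and CRH), neuronal transcription and RNA factors 3 of 23 (NEUROD1, INSM2 and SRRM3), synaptic vesicle and release genes 2 of 26 (SNAP25 and SYT7), neuronal cytoskeleton and adhesion 1 of 21 (CELSR3) and voltage-gated ion channels 0 of 25. That last list leaves out the channel genes KCNH4, where an RE1 member lay 863 bp from the start, and CACNA1C, which held a member in an intron. The same 6 lists had 40 genes with any EHMT1 peak inside or at the start, so that other EHMT1 peaks, among them those at SYT4, CHGA and SST, accounted for the rest. The share of all protein-coding genes with any EHMT1 peak is not given here, so whether 40 is many cannot be judged. Counts inside a gene were not adjusted for its length. None of 25 E2F and replication genes and none of 17 androgen receptor and luminal prostate genes had a member. Of 6 genes looked up by name, members were found at HTR5A and in an intron of PPP1R14C, a phosphatase inhibitor (EHMT1 fold 6.08, V5 fold 10.2, no RE1 string), and none at STXBP3, LIPT2, FRMPD2 or MCM7. The PPP1R14C site lay in repeated sequence, 66.8% identical to itself at a shift of 48 bases. In its window 24 of the 151 stretches of 51 bases were unique in the genome.

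Among 15 genes of REST and its cofactors 1 held members, EHMT1 itself. Both lay in its introns. The first had an EHMT1 fold of 6.59, a V5 fold of 4.04 in K450RK451R cells and 7.38 in K451R cells. The second had an EHMT1 fold of 4.06, with the lowest −log10 q of all members, 1.83, and V5 folds of 9.09 and 6.55. It was also in all 4 H3K9me2 lists, with folds from 12.5 to 16.5, and 1 of the 151 stretches of 51 bases in its window was unique in the genome. Neither held an RE1 string.

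The RE1 members were compared with the other members by their place in genes. Of the 45, 16 (35.6%, 95% interval 23.2% to 50.2%) had an EHMT1 summit that lay at most 1 kb from a protein-coding start, against 15 of the other 419 (3.58%), a difference of 32.0 percentage points (95% interval 19.4 to 46.7, two-sided Fisher's exact test over peaks, adjusted exact p = 6.6e-10). With lists of equal length, which left 4 RE1 members, the difference was no longer called (1 of 4 against 0 of 36, adjusted exact p = 0.15). Over all EHMT1 peaks the share was 4.55%. Of the 12 with another spacing, 6 lay within 1 kb of a start, at SCG3, NTSR2, GRM2, MARCHF4, SLITRK1 and SVOP. Without a string at either spacing 9 remained, at RGPD2, CDC27, NSG2, WDR74, SRRM3, RAB3C, SLC39A3, SPATC1L and RPS6KC1. Distances were taken to the 5′ end of the gene, and counting the starts of all coding transcripts gave 22 of 45 RE1 members. The RE1 members were also GC-rich, with a median of 64.7% GC in the window and a range of 50.2% to 79.1%, while the members with no string had a median of 42.3%.

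The list of K450RK451R V5 peaks was far longer than the others. It held 14594 peaks on these chromosomes, the WT list 594, K450R 581 and K451R 780, and its lowest −log10 p was 3.99 against 6.57, 5.89 and 5.48. The background per position that the caller assumed was recovered from the deposited values as the lowest in each list. It was 0.840 in the K450RK451R list and 0.328, 0.411 and 0.523 in the others. It stands in here for the reads behind each list, which were not counted. The members were scaled to the WT list by the ratio of these backgrounds, 0.390, with the enrichment kept. On this scale 191 of the 464 members (41.2%) would have reached the lowest −log10 p found there. Of the RE1 members, 8 of 45 would have. The rule used these V5 values and kept every member out of the WT list, so these counts are a description. The part of depth in that absence was not tested. When every list was cut to its 637 top peaks by −log10 p, 40 members were left, 4 of them with RE1. With 1 peak kept per 100 kb there were 176, and at a −log10 q of at least 10 in every list 226.

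Members just inside the rule of overlap were OPRM1, where the EHMT1 and V5 peaks shared 13 bp, and an intron of CACNA1C, where they shared 14 bp. Just outside were peaks at SHOX2 and MARCHF11, which lay 13 and 24 bp from a K450RK451R V5 peak. The median overlap was 117 bp, 9 members shared under 50 bp, and 91 members had a WT V5 peak within 1 kb without sharing a base with it.

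The single-mutant V5 lists were not part of the choice. A peak of the K450R list overlapped 83 members (17.9%, 95% interval 14.7% to 21.6%), and one of the K451R list 157 (33.8%, 95% interval 29.7% to 38.3%). Of all EHMT1 peaks 33.1% and 42.2% were in these lists. Either list held 180 members (38.8%, 95% interval 34.5% to 43.3%, against 44.5% of all EHMT1 peaks), both held 60, and 284 were in neither. In EHMT1 peaks that overlapped a WT V5 peak the share in either list was 96.8% (520 of 537). In those of neither the WT nor the K450RK451R V5 list it was 3.84% (24 of 625). With lists of equal length the share in members was 62.5% (25 of 40). In the 60 members that both lists held, the median V5 fold was 7.02 for K450R, 6.96 for K451R and 6.90 for K450RK451R.

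Members with RE1 were seldom in the single-mutant lists. Of the 45, 5 were (11.1%, 95% interval 4.84% to 23.5%), against 175 of the other 419 (41.8%), a difference of -30.7 percentage points (95% interval -38.5 to -17.4, Fisher's exact test over peaks, adjusted exact p = 3.96e-05). The difference was no longer called at a −log10 q of at least 5 in every list (6 of 19 against 148 of 335, adjusted exact p = 0.346) or with lists of equal length (1 of 4 against 24 of 36, adjusted exact p = 0.179). The lists also differ in depth, whose part in the difference was not tested. Scaled to the single-mutant lists by the ratio of backgrounds, 11 of the 45 RE1 members would have reached the lowest −log10 p of the K450R list. That of the K451R list would have been reached by 21, whereas 1 and 4 were found in the K450R and K451R lists. For the 407 members with no string, 289 and 366 would have, and 81 and 153 were found.

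Of these 5, HTR5A was in the K450R list with a fold of 8.23, and the other 4 were in the K451R list. There SNAP25 had a fold of 8.13, the intergenic site 32087 bp from ZNF254 8.07, a site in the non-coding RNA gene ITFG2-AS1 near FKBP4 5.95 and a site 243960 bp from MVB12B 4.40. No RE1 member was in both lists. Of the 12 members with another spacing, 1 was in a single-mutant list, INSM2, a zinc-finger factor of neuroendocrine cells, with a fold of 6.75 in the K450R list.

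**Figure D4:**
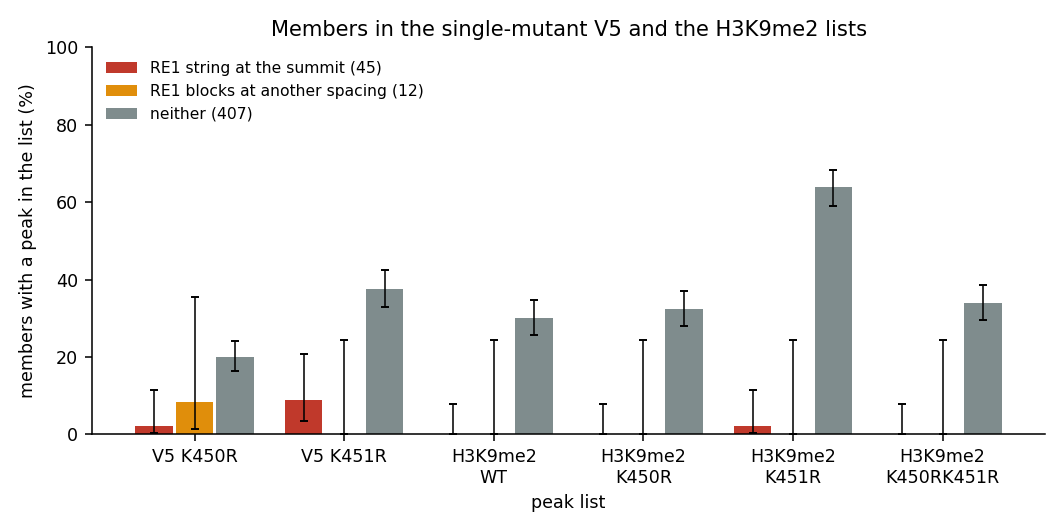
Share of members (%) with a peak in each single-mutant V5 list and in the H3K9me2 list of each line. Bars are the 45 RE1 members (red), the 12 with the blocks at another spacing (orange) and the other 407 (grey), with 95% Wilson intervals. H3K9me2 peaks fell almost wholly on the grey members, at 29.98% to 63.9%.

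H3K9me2 peaks of at least 1 line overlapped 294 members (63.4%, 95% interval 58.9% to 67.6%), while the share of all EHMT1 peaks was 54.1%. With 1 peak kept per 100 kb it was 38.6% in members (68 of 176), while 147 of 159 EHMT1 peaks that overlapped a WT V5 peak and 10 of 465 in neither V5 list had one. By line, the WT list held 122 members (26.3%), K450R 132 (28.4%), K451R 261 (56.3%) and K450RK451R 138 (29.7%). The same lists held 37.6%, 37.8%, 50.3% and 38.0% of all EHMT1 peaks. The K451R list was also the longest of the 4, with 1133 peaks on these chromosomes against 709, 740 and 833, and 77 members were in it and in no other H3K9me2 list. In 48 members H3K9me2 was called in all 4 lines, with median folds of 7.71 in the WT line, 7.44 in K450R, 7.33 in K451R and 7.23 in K450RK451R.

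Of the RE1 members, 1 of 45 overlapped an H3K9me2 peak (2.22%, 95% interval 0.393% to 11.6%), against 293 of the other 419 (69.9%). The difference was -67.7 percentage points (95% interval -72.3 to -57.3, Fisher's exact test over peaks, adjusted exact p = 8.47e-20). The exception was the intergenic site near ZNF254, with an H3K9me2 fold of 8.77 in the K451R line. In the WT, K450R and K450RK451R lines no RE1 member had an H3K9me2 peak, and 0 of 45 allows a share of up to 6.67%. None of the 12 members with another spacing had one in any line. A peak list shows where H3K9me2 stood out from its surroundings, and a level spread evenly over a broad region was not measured by it.

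The 464 members were set beside the other EHMT1 peaks, of which 537 overlapped a WT V5 peak and 625 neither V5 list. RE1 was more common in members than in WT-shared peaks (9.70% against 6 of 537, 1.12%, a difference of 8.58 points, 95% interval 5.88 to 11.7, adjusted exact p = 4.9e-10) and less common than in peaks of neither list (322 of 625, 51.5%, -41.8 points, 95% interval -46.4 to -36.9, adjusted exact p = 4.05e-51). With 1 peak per 100 kb RE1 was found in 23.9% of members (42 of 176), 6 of 159 WT-shared peaks and 281 of 465 peaks of neither list. H3K9me2 ran the other way, at 63.4% in members, 96.1% in WT-shared peaks (-32.7 points, 95% interval -37.4 to -28.0, adjusted exact p = 4.1e-42) and 11.2% in peaks of neither list (52.2 points, 95% interval 46.9 to 57.0, adjusted exact p = 1.55e-74). These are two-sided Fisher's exact tests over peaks with Benjamini-Hochberg adjustment over 9 comparisons. They treat peaks as independent, although 287 of the 464 members lay within 100 kb of another member, so they overstate the precision. The V5 lists also defined the sets. Scaled to the WT list as above, 8 of the 45 RE1 members would have reached its lowest −log10 p. Of the 407 members with no string at either spacing, 182 would have. The part of this in the RE1 difference was not tested.

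Nearness to a coding start was also compared. It was 6.68% in members (31 of 464), above the 1.12% of WT-shared peaks (5.56 points, 95% interval 3.23 to 8.28, adjusted exact p = 3.01e-06). With lists of equal length the call was lost (1 of 40 against 4 of 426, adjusted exact p = 0.363). Against the 5.92% of peaks of neither list the difference was 0.76 points (95% interval -2.12 to 3.85, adjusted exact p = 0.615). This last comparison depended on the setting as well, being -3.51 points at a −log10 q of at least 5 in every list (adjusted exact p = 0.0316) and 9.30 points with 1 peak per 100 kb (adjusted exact p = 0.00131).

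Most RE1 sites that bound EHMT1 in parental cells were thus not members. Of the 373 EHMT1 peaks with RE1, 322 were in neither V5 list, 45 were members and 6 overlapped a WT V5 peak. The 322 had a median EHMT1 fold of 7.96 and a median of 51.2% GC, and 18 of them (5.59%) lay within 1 kb of a coding start, beside the 10.4, 64.7% and 35.6% of the RE1 members. Like the RE1 members they were seldom in the other lists, with 0 of 322 in an H3K9me2 list, which allows a share of up to 0.932%, and 1 of 322 (0.311%) in a single-mutant V5 list. None of these values was tested between the 2 sets. In the genome 50 strings matched at every letter, of which 23 lay at an EHMT1 summit and 4 at a member. With 1 mismatch 81 of 266 lay at an EHMT1 summit and 14 at a member, with 2 mismatches 158 of 991 and 28, and with 3 mismatches 141 of 4536 and 14. A window can hold several of these strings.

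The remaining 407 members held neither form of the motif. In them 293 (72.0%) overlapped an H3K9me2 peak, 174 (42.8%) a single-mutant V5 peak and 154 both, and 94 were in no list other than the 2 that chose them. Their summits lay close to the gaps of the assembly, which mark centromeres, telomeres and other unresolved sequence. Of the 293 with H3K9me2, 243 (82.9%) were within 1 Mb of a gap of at least 10 kb, as were 63 of the 114 without H3K9me2 (55.3%) and 10 of the 57 members with either form of the motif (17.5%). Over all EHMT1 peaks the share was 56.7% and in WT-shared peaks it was 80.6%. They also stood in groups: 286 of the 407 had another member within 100 kb, while 1 of the 45 RE1 members did.

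**Figure D5:**
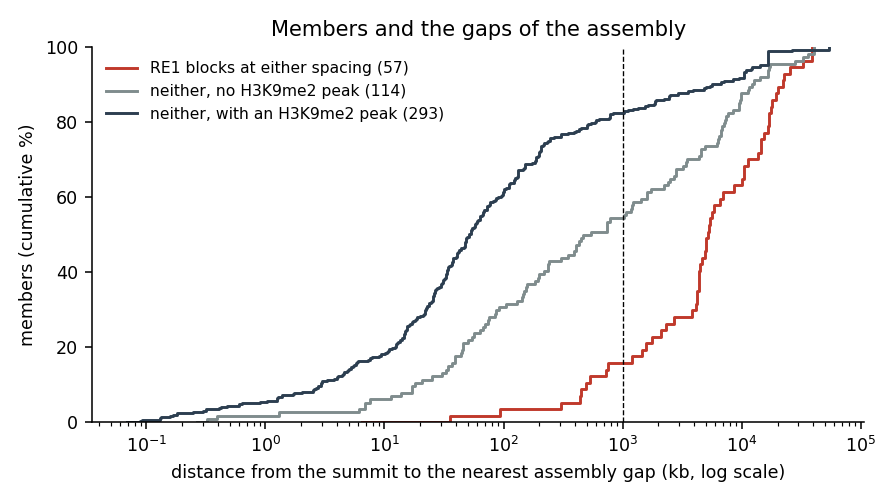
Cumulative share of members (%) by the distance from the EHMT1 summit to the nearest assembly gap (kb, log scale), for the 57 members with RE1 blocks at either spacing (red), the 114 with neither and no H3K9me2 peak (grey) and the 293 with neither but with H3K9me2 (dark blue). At the dashed line of 1 Mb the curves stand at 17.5%, 55.3% and 82.9%.

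Tandem repeats were common among these 407. In 216 (53.1%) the sequence within 400 bp of the summit was at least 60% identical to itself when shifted by up to 400 bases, and in 84 the best shift was about 171 bases or a multiple of it, the repeat length of centromeric alpha satellite. The unit GGAAT, as in the pericentromeric satellites II and III, occurred at least 6 times in the window of 201 bp, both strands counted, in 82 members. These shares of the 407 (53.1%, 20.6% and 20.1%) stood beside 33.6%, 18.0% and 13.7% of all EHMT1 peaks and 50.8%, 32.8% and 23.3% of WT-shared peaks. None of the 57 members with the motif had either kind. The following were the members with the highest EHMT1 −log10 q of each kind, shown to set beside the RE1 sites, with the GGAAT units of either strand in capitals.
Satellite on chromosome 7, 171-base repeat (chr7:61992459-61992629, plus strand): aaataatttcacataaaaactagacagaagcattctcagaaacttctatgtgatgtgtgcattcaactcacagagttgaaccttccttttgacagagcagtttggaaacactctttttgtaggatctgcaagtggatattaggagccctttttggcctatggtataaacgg
GGAAT repeat on chromosome 7 (chr7:61794542-61794662, plus strand): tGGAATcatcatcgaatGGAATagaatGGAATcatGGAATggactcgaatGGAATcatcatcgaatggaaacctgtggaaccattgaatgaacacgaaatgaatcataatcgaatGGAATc
The first, shown over 171 bases, was 74.1% identical to the sequence 171 bases away and had an EHMT1 fold of 8.70 and a V5 fold of 6.27 in K450RK451R cells, 25387 bp from a gap. The second had folds of 11.0 and 6.53. Both were also in an H3K9me2 list and in a single-mutant V5 list.

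Copies of a sequence limit where reads can be placed. In 57 of the 407 (14.0%) no stretch of 51 bases in the window was unique in the genome, and in 73 (17.9%) every stretch was. Over all EHMT1 peaks these shares were 9.59% and 42.3%, and in WT-shared peaks 13.4% and 13.2%. Among the RE1 members every stretch was unique in 44 of 45. When members with no unique stretch were left out, 406 members remained, and the shares with H3K9me2 (61.6%), in a single-mutant list (38.4%) and with RE1 (10.8%) stayed within the intervals given above.

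The members without RE1 with the highest −log10 q lay in genes. First was an intron of CDC27, a subunit of the anaphase-promoting complex, with a −log10 q of 48.0, an EHMT1 fold of 14.2 and a V5 fold of 7.14, and H3K9me2 folds of 8.63 in the WT line and 9.76 in the K451R line. Another site in the same gene had a −log10 q of 38.5, V5 folds of 11.1, 8.96 and 10.4 in K450RK451R, K450R and K451R cells, and H3K9me2 in the K450R, K451R and K450RK451R lines. CDC27 held 5 members in all. RGPD2, a member of a duplicated gene family, had an EHMT1 fold of 17.9 with V5 folds of 9.09, 11.5 and 15.5, 859 bp from its start. KIAA0825 had 16.6 with V5 folds of 13.0, 9.52 and 13.8, and PCBD2 8.70 with 6.57, 9.27 and 9.0, the latter at a pseudogene of mitochondrial ND4. RGPD2, KIAA0825 and PCBD2 had no H3K9me2 peak in any line.

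Strings of other factors were looked for on either strand of these windows. The E2F strings TTTCCCGC and TTTGGCGC were found in 2 of 464 members (0.431%), 0.108% of the flanking windows and 0.156% of the genome's windows. The MYC E-box CACGTG was found in 1.51%, 2.26% and 1.84%, the SNAI1 string CAGGTG in 8.41%, 8.84% and 14.7%, the FOXA string TGTTTAC in 1.08%, 1.40% and 3.13%, and the MEF2 string CTAAAAATA in 1.51%, 2.16% and 3.85%. The HINFP string GTCCGC was found in 4.96% of members, 1.40% of flanking windows and 0.742% of the genome, and 18 of the 23 were members with RE1 blocks at either spacing. On the other strand it reads GCGGAC, which the right block forms when the bases before it are gc, so that such a match overlaps the RE1 string. Of the sites printed above these bases are gc at some, GPR6, PTPRN and CHGB among them, and others elsewhere, as at GRIA2 and CHRNB2. How many of the 18 matches were formed in this way was not counted. These matches describe letters in a window and show no binding.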

How the data were processed

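The members, gene lists and comparisons were chosen with earlier results of these data known. The authors mapped single-end reads to hg19 and called peaks, with BWA 0.7.9a, SAMtools 1.2 and MACS2 2.1.0 per the submitters' processing notes, and deposited 1 peak list per group. Whether replicates were pooled was not given in the sources used here. Per peak, the deposited values were a fold enrichment (the ratio of pileup to background), −log10 p, −log10 q, a display score and the summit offset. The score and the display columns were not used. The depth of each list was judged from its length, its lowest −log10 p and the background solved from fold and −log10 p.

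Peaks overlapped when they shared 1 bp. Shares carry 95% Wilson intervals and differences Newcombe intervals. A limit for a share of 0 is 3 counts. The 9 Fisher tests were adjusted by the Benjamini-Hochberg method at 0.05. They treat peaks as independent. Functions were tested on simulated data. Genes were those of GENCODE 44 on GRCh37, and sequences were read from that assembly, those on chromosome 8 not being printed. Some items, 1 listed gene among them, are not reported here. Named members were the 10 RE1 members at coding starts and the 6 elsewhere with the highest EHMT1 fold, the 5 members without RE1 with the highest −log10 q, RE1 members at starts in single-mutant lists, up to 25 at listed genes, 6 genes set by name, and peaks at the edge of the rule. Members with another spacing, or named only in a count, were chosen after their values were seen. Python 3.11.15, numpy 2.4.6, pandas 2.3.3, scipy 1.17.1 and numba 0.67.0 were used.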

Additional observations from a re-analysis of the deposited data

How the results depend on the processing

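No paired analysis was possible because there is 1 peak list for the 2 replicates of a group, and for the same reason no replicate could be left out. The direction and the call were kept under all alternatives run for the RE1 and the H3K9me2 differences between members and the 2 other sets, and for H3K9me2 in members with and without RE1. Members numbered 226 with −log10 q held to 10 or more in every list, 40 with lists of equal length and 176 with 1 peak per 100 kb. The share in a single-mutant list was 43.5% and 49.1% with −log10 q held to 5 and 10, 62.5% with equal lengths, 29.0% with 1 peak per 100 kb, and 17.9% and 33.8% with K450R or K451R alone. The share with H3K9me2 was 68.4%, 70.8%, 72.5% and 38.6% under the first 4 of these settings, 29.7% with the K450RK451R line alone and 26.3% with the WT line alone. The share with RE1 was 5.37% and 5.75% with −log10 q held to 5 and 10, and 23.9% with 1 peak per 100 kb. With equal lengths the difference at coding starts between members and WT-shared peaks was 1.56 points (adjusted exact p = 0.363), that between RE1 and other members 25 points (adjusted exact p = 0.15) and that in single-mutant lists -41.7 points (adjusted exact p = 0.179), with 4 RE1 members left. The latter was -12.6 points (adjusted exact p = 0.346) with −log10 q held to 5. Members and peaks of neither list differed at coding starts by -3.51 points (adjusted exact p = 0.0316) and -0.60 points with −log10 q held to 5 and 10, by -6.44 points with equal lengths, by -2.02 points within 5 kb, and by 9.30 points (adjusted exact p = 0.00131) with 1 peak per 100 kb. The cause was not tested. Counting the blocks at any spacing as RE1, and starts of all coding transcripts, were chosen after seeing the data and changed no call.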
